A study of Mus musculus with 6 samples.

Results

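The genes described here carry a mouse symbol that begins with Rab and a number. By that rule, 69 of the 21887 protein-coding genes on chromosomes 1 to 19, X and Y in RefSeq (GRCm38.p6) were members. They were picked for study because Flag-Rxra peaks are frequent at them, so their peak counts are a description and carry no test. The symbol rule takes in more than Rab GTPases. It held 59 GTPases and 10 genes for accessory proteins that bind or regulate them, namely Rab3gap1, Rab3gap2, Rab3il1, Rab3ip, Rab5if and the Rab11fip genes 1 to 5.

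All 6 samples were OG2X129 mouse embryonic fibroblasts in a chemical reprogramming experiment, profiled by CUT&Tag, in which a transposase brought to an antibody releases the DNA beside it. The antibody was against H3K27ac, an acetylation mark of active promoters and enhancers, in the 2 samples treated with CD and the 2 treated with DMSO. It was against Flag in 2 samples that overexpressed Flag-tagged Rxra. The series title names CD3254, an agonist of retinoid X receptors (RXR), and the labels write only CD. The labels give neither the day of sampling nor the treatment, if any, of the cells with Flag-Rxra, and replicates are not stated to be separate cultures. Rxra was an overexpressed, tagged protein, so its peaks are not those of the cells' own receptor.

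Rab GTPases are small proteins that switch between a GTP-bound and a GDP-bound state and mark the membranes of the secretory and endocytic pathways. In the GTP-bound state each recruits its own effectors, which move, tether or fuse vesicles. Exchange factors load them with GTP, GTPase-activating proteins switch them off, and GDP dissociation inhibitors take them off membranes. Fibroblasts secrete matrix and recycle adhesion receptors through these routes. RXRα binds DNA mostly together with partner receptors, at repeats of the letters AGGTCA.

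Flag-Rxra gave 28243 peaks in the first replicate list and 45999 in the other, and 17623 replicate 1 peaks overlapped a replicate 2 peak by 1 bp or more and are called shared. For H3K27ac, the replicates of a condition share 1 list, with 104437 regions in CD and 75482 in DMSO, so H3K27ac values have no replicate error and were not tested. The lists give no read counts, the depth is unknown, and no control list was used here. Of 12 fibroblast markers, 6 had an H3K27ac region within 1 kb of a gene end in CD and 5 in DMSO, against 3 and 1 of 6 macrophage, 0 and 3 of 4 endothelial, 2 and 1 of 4 epithelial and 0 and 1 of 4 neural markers. Over all protein-coding genes the shares with such a region were 38.3% in CD and 35.8% in DMSO. Fibroblast markers were thus marked in part of the cases only, and some markers of other cell types were marked too. Their part in the results was not tested.

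The promoters of 5 of the members with the strongest peaks, and of the 2 members with no peak nearby, are shown so that the DNA under the peaks can be compared. Each window runs from 250 bases before to 50 after a RefSeq start site (GRCm38.p6), 5′ to 3′ on the strand of the gene. Capitals mark every match, on either strand, to AGGTCA (a nuclear receptor half-site), TGACTCA or TGAGTCA (AP-1), GGGCGG (a GC box), CCGGAAG (ETS factors), CACGTG (an E-box), CGCATGCG (the core of the NRF1 motif), TGACGTCA (a cAMP response element) and CCAAT. Neighbouring matches can run together. The windows are chr8:72160950-72161249 (plus strand) for Rab8a, chr2:173659595-173659894 (plus) for Rab22a, chr9:53706183-53706482 (minus) for Rab39, chr17:53478984-53479283 (plus) for Rab5a and chr12:3309920-3310219 (minus) for Rab10. Those without a peak are chrX:75578182-75578481 (minus) for Rab39b and chrX:136868507-136868806 (minus) for Rab9b.
Rab8a: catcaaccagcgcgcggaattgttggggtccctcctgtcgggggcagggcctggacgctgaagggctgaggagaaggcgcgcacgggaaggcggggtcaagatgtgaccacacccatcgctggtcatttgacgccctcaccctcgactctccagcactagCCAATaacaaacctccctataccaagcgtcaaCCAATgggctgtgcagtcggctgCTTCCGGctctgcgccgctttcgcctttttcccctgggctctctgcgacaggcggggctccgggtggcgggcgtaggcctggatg
Rab22a: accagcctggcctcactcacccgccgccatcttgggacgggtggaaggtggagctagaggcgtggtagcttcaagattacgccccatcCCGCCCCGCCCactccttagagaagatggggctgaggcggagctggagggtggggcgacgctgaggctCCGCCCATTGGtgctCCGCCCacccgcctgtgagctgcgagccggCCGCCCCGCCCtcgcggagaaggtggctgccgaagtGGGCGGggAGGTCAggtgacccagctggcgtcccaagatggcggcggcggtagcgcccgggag
Rab39: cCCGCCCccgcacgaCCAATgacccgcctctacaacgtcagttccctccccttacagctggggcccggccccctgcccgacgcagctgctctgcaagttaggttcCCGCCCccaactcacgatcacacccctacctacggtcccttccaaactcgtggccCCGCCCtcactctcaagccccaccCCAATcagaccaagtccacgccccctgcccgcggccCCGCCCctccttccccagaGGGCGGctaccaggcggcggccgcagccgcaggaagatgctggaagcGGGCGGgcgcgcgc
Rab5a: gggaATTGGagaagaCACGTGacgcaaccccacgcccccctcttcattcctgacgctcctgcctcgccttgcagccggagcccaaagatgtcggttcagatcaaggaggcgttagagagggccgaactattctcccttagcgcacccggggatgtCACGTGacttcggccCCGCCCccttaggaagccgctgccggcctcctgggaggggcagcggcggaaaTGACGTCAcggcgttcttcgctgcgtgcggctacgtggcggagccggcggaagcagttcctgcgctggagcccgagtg
Rab10: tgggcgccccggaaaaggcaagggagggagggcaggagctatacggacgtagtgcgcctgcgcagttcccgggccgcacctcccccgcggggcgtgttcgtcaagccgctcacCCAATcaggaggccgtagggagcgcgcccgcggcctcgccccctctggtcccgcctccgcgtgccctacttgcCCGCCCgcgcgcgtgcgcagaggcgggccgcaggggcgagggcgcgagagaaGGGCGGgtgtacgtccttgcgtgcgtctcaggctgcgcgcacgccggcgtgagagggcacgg
Rab39b: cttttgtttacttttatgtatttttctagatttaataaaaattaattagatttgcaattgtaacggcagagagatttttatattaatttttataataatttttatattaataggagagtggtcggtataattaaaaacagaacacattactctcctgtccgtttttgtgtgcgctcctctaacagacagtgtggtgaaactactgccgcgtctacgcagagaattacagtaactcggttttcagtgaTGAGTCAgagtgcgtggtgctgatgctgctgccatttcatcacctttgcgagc
Rab9b: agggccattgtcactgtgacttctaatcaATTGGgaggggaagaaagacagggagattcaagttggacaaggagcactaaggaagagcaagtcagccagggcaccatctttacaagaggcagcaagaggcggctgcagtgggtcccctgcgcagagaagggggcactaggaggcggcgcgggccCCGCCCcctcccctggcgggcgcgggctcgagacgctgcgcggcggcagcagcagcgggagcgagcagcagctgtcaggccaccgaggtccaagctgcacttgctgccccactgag

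The shared peak covered all 300 bases of the Rab8a, Rab39, Rab5a and Rab10 windows and 228 of the Rab22a window. Rab22a, an early endosome GTPase, held 7 GC boxes and the only AGGTCA match among the 7 windows. Rab39 held 6 GC boxes and Rab8a none. The Rab5a window held 2 E-boxes and a cAMP response element. The share of G and C was 70.7% in the Rab39 window and 35.7% in that of its paralogue Rab39b. It was 64.3% in the Rab9b window and 64.0% in the Rab8a window. Any relation between composition and peaks was not tested on these windows.

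Shared Flag-Rxra peaks lay within 1 kb of an annotated end of 40 of the 69 Rab genes (58.0%, exact Clopper-Pearson 95% interval 45.5 to 69.8), where 32.6% of all protein-coding genes had one. The interval covers counting error only, and the members were picked on this measure. A gene with such a peak is called bound below, meaning a called peak and no more. The 59 GTPases alone gave 34 bound genes (57.6%) and the accessory genes 6 of 10. Where both peaks had to overlap by 50% of their length, 26 Rab genes were left, against 20.2% of all genes. Peaks of replicate 2 alone lay at 49 Rab genes (71.0%, against 42.1% of all genes) and those of replicate 1 alone at 47 (68.1%, against 41.7%). With a −log10 q of 20 or more in both lists 32 were left (46.4%, against 24.2% of all genes). A window of 2.5 kb gave 43 (62.3%, against 37.0%). Listed start sites in place of gene ends gave 34 of 56 (60.7%, against 34.3% of all genes with a listed site). The 40 best peaks were 40 distinct peaks. Fold enrichment, the authors' ratio over the background estimated by their peak caller, had a median of 12.4 in replicate 1 and 18.2 in replicate 2 over the 40 genes, against 11.3 and 15.7 over all 7128 bound genes. Replicate 2 had the higher fold at 35 of the 40, as at 83.4% of all bound genes.

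The best peaks sat at gene starts. A RefSeq start site was listed for 33 of the 40, and in all 33 the gene end nearer to the peak was the start. Of these 33, 28 had the summit within 250 bp of a listed start site (84.8%), against 70.7% of bound genes in general. Among the 32 within 1 kb, 23 summits lay upstream and 9 downstream, from −370 bp at Rab40c to 338 bp at Rab9. The exception was Rab33a, whose peak lay 263 bp from its annotated end but 5885 bp upstream of its listed start site, beside Aifm1. The summits of both replicates lay a median of 60.0 bp apart at Rab genes and also at bound genes in general. At 9 of the 40 genes (22.5%) the peak also reached within 1 kb of another protein-coding gene, against 31.2% of bound genes, so the peak cannot be assigned to the Rab gene alone. These were Rab1b (with Klc2), Rab2b (Tox4), Rab6a (Mrpl48), Rab4b (Mia), Rab5b (Pmel), Rab13 (Rps27), Rab26 (Traf7), Rab37 (Slc9a3r1) and Rab33a (Aifm1).

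**Figure D1:**
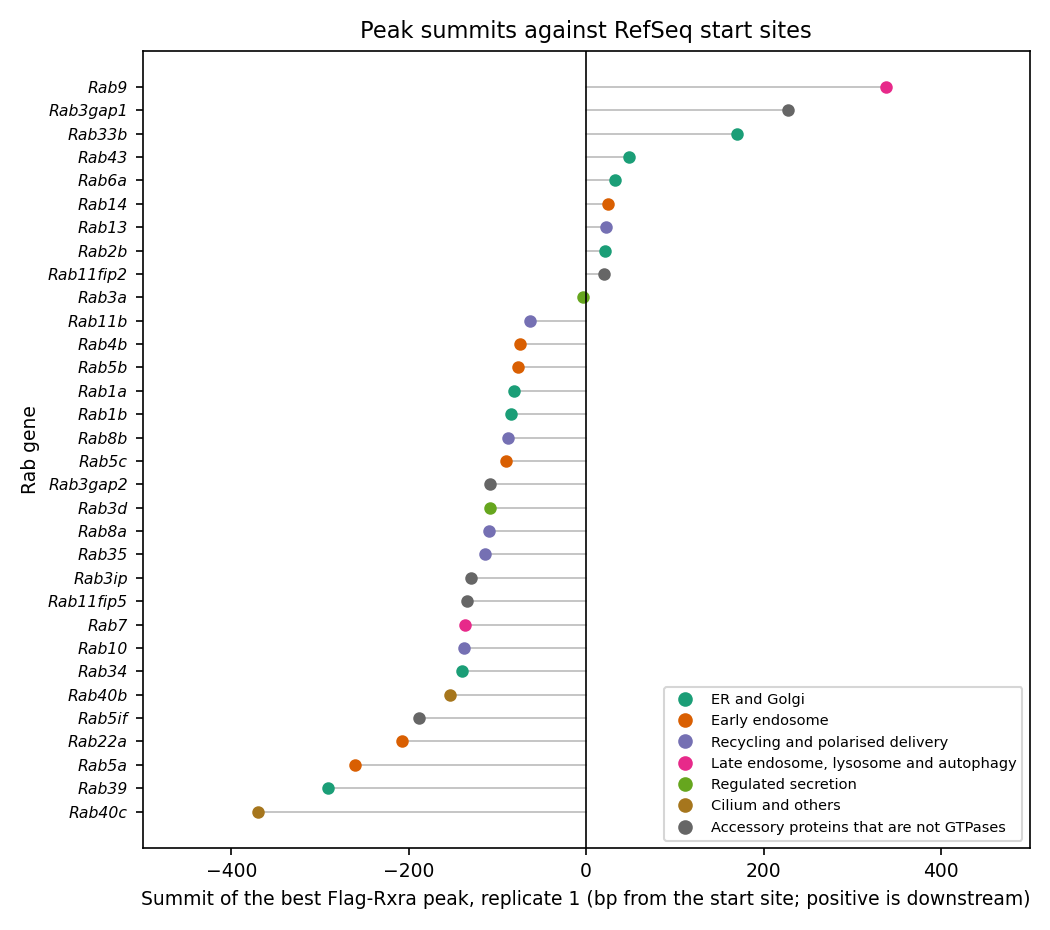
Position of the replicate 1 summit of the best shared Flag-Rxra peak (x axis, bp, positive is downstream) against the nearest RefSeq start site for 32 bound Rab genes (y axis), coloured by role. Most of the points, 23 of 32, lie upstream of the start, all between −370 and 338 bp; Rab33a, at −5885 bp, lies outside the axis.

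Most promoter windows of Rab genes under a shared peak held a GC box, and few held the half-site. Of the 69 Rab genes, 56 had a window in the RefSeq table, giving 74 windows, of which 41 overlapped a shared peak. GC boxes (GGGCGG) were in 34 of these 41 (82.9%), against 74.7% of the 6174 windows of all genes under a shared peak and 46.2% of all 21263 windows. AGGTCA was in 2 of the 41 (4.88%), at Rab22a and in 1 window of Rab43, against 11.1% and 14.7%. None of the 74 held 2 AGGTCA letters in the same direction with 1 or 4 bases between them, and 10 of all 21263 windows held the former spacing. CCGGAAG was in 5 of the 41 (12.2%), where 22.3% of all windows under a shared peak held it, and CACGTG in 5 (12.2%), where 10.9% did. The median share of G and C was 65.3% in the 41 windows, 63.0% in all windows under a peak and 56.3% in all windows. Overlapping windows of one gene share letters, and a match is not a binding site.

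The strongest peak by mean rank of fold over both replicates lay at Rab8a, which delivers vesicles to the plasma membrane and the primary cilium. This peak (chr8:72160830-72161532) had folds of 21.4 (replicate 1) and 31.9 (replicate 2), and later pairs of folds keep this order. Rab22a, which acts on early endosomes, followed with 22.0 and 29.0 (chr2:173659496-173659822). Rab39, a Golgi and endosome GTPase with a part in autophagy, had 17.5 and 28.1 (chr9:53706046-53706680). Rab36, found at the Golgi, had 21.0 and 22.9 (chr10:75036976-75037469). Rab5a, which drives fusion of early endosomes, had 16.5 and 24.5 (chr17:53478712-53479307). Rab10, which carries membrane proteins to the cell surface, had 16.3 and 23.2 (chr12:3309763-3310319). These 6 had folds above the median of bound genes in both replicates, which follows from their choice by fold.

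The next 6 by rank spread over several compartments. Rab11b, of the recycling endosome, had folds of 18.1 and 19.2. Rab3gap2, the non-catalytic subunit of the Rab3 GTPase-activating complex, had 15.7 and 19.5. Rab33a had 12.3 and 26.5, with the doubt about its start given above. The Golgi GTPases Rab2b (14.6 and 20.3) and Rab30 (13.4 and 21.0) and the SOCS-box protein Rab40c (13.5 and 20.5), which serves cullin ubiquitin ligases, completed the 12. An H3K27ac region overlapped the peak in CD at 9 of the 12 and in DMSO at 8. Over all bound genes the shares were 37.6% in CD and 46.0% in DMSO. Neither list had one at the peaks of Rab39 and Rab36.

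**Figure D2:**
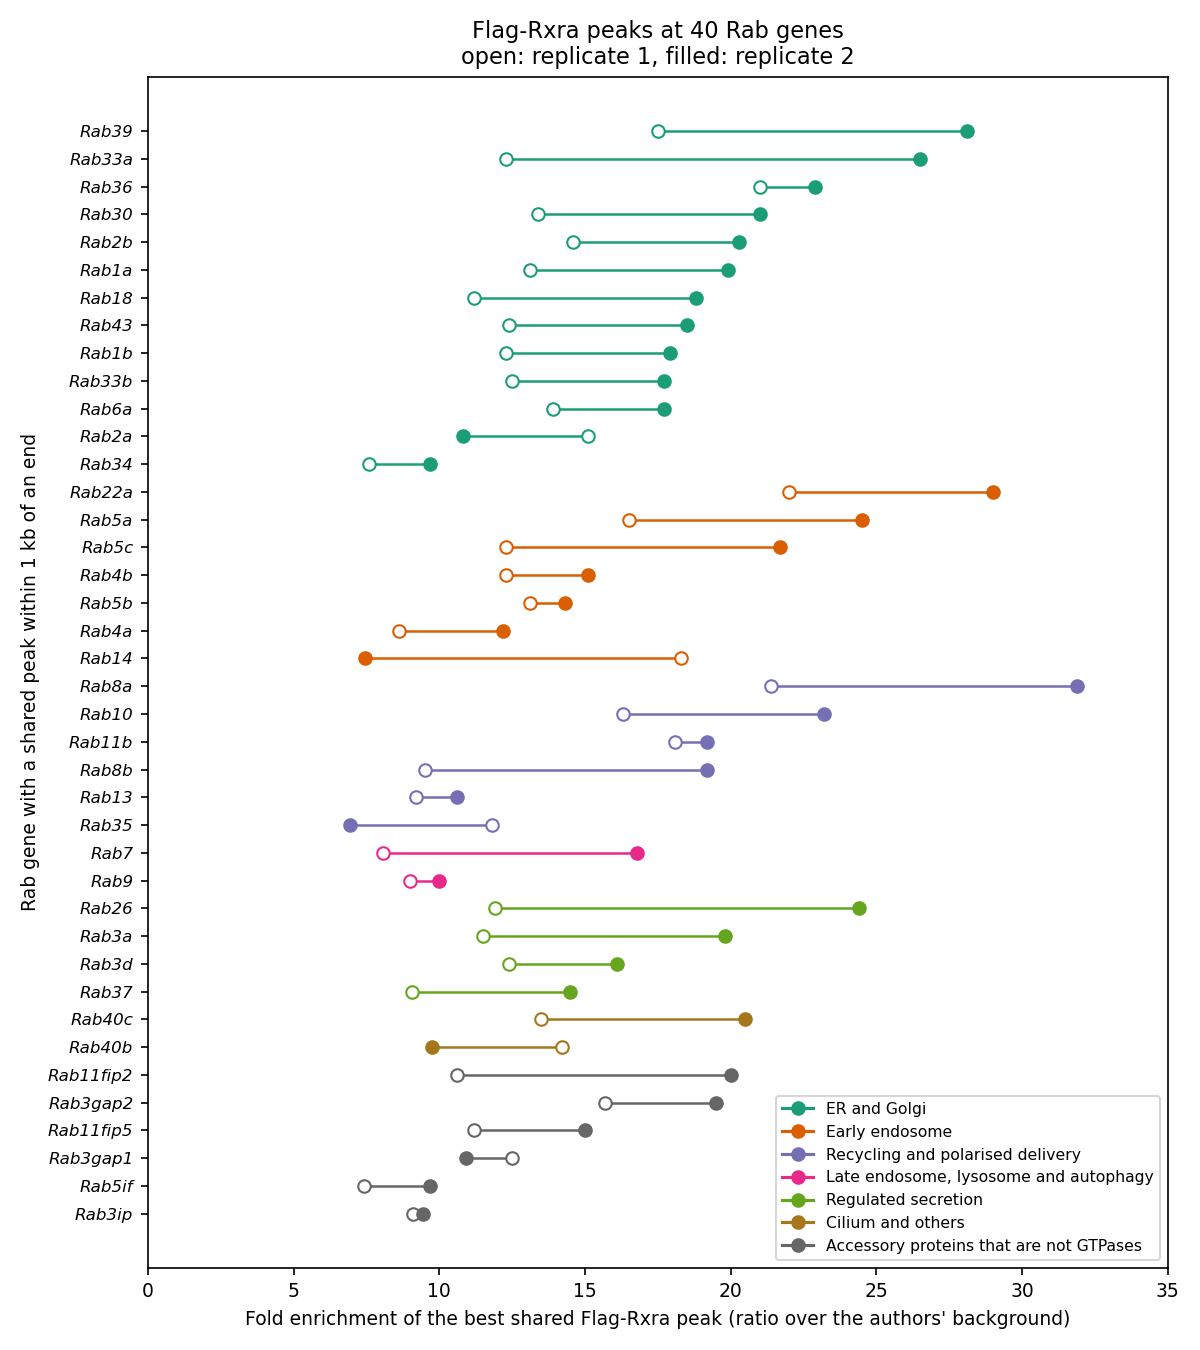
Fold enrichment (x axis, ratio over the authors' background) of the best shared Flag-Rxra peak in replicate 1 (open) and replicate 2 (filled) at the 40 bound Rab genes (y axis), grouped and coloured by role. Rab8a and Rab22a reach the highest values, and 5 genes (Rab2a, Rab14, Rab35, Rab40b and Rab3gap1) have the higher fold in replicate 1.

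The GTPases were also counted by role, as a description, since the members were picked on these peaks. In the set of the endoplasmic reticulum and Golgi, which serves transport from the endoplasmic reticulum through the Golgi, 13 of 16 were bound (81.2%, exact interval 54.4 to 96.0). Both Rab1 genes, needed for transport out of the endoplasmic reticulum, were bound, with folds of 13.1 and 19.9 at Rab1a and of 12.3 and 17.9 at Rab1b. The retrograde transport gene Rab6a had 13.9 and 17.7, while its paralogue Rab6b had a replicate 1 peak only, of fold 6.33. Rab19 had a replicate 2 peak only (7.07), and Rab39b had none in either list. Rab2a differed from most in having the higher fold in replicate 1 (15.1 against 10.8).

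Early endosome GTPases were bound at 7 of 9 genes (77.8%, 40 to 97.2). All 3 Rab5 genes were among them, and Rab5c (12.3 and 21.7) and Rab5b (13.1 and 14.3) stood below Rab5a. Both Rab4 genes, of the fast recycling route, were bound, at 12.3 and 15.1 for Rab4b and 8.60 and 12.2 for Rab4a. Rab14 had discordant replicates, with 18.3 in replicate 1 and 7.46 in replicate 2. Rab21, an integrin transport GTPase, counted as not bound because its shared peak (12.2 and 13.0) lay 1338 bp inside the gene, yet that peak overlapped its RefSeq promoter window. Rab31 had a peak in each replicate (5.59 and 10.5) that did not overlap.

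Among recycling and polarised delivery GTPases, 6 of 10 were bound (60.0%, 26.2 to 87.8). Rab8b had folds of 9.50 and 19.2, Rab13, of tight junction transport, 9.20 and 10.6, and Rab35 11.8 and 6.94. Rab11a, the paralogue of Rab11b, had 2 peaks within 1 kb in replicate 2, the higher of fold 14.5, and none in replicate 1. Rab15 had replicate 1 peaks only, the higher of fold 6.02. The epithelial GTPases Rab17 and Rab25 had no peak within 1 kb in either replicate.

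Late endosome, lysosome and autophagy GTPases were bound at 2 of 9 genes (22.2%, 2.81 to 60.0), where 32.6% of all genes were. The count depends on asking for both replicates: 4 of 9 had a peak in replicate 1 (44.4%, against 41.7% of all genes) and 5 of 9 in replicate 2 (55.6%, against 42.1%). With a −log10 q of 20 or more in both lists it was 0 of 9, against 24.2% of all genes. The 2 bound genes were Rab7, which governs maturation and fusion of late endosomes (8.08 and 16.8), and Rab9, of transport from late endosomes to the Golgi (8.99 and 10.0). Of their paralogues, Rab7b had a replicate 1 peak only, of fold 6.02, and Rab9b had none. Rab32, of lysosome-related organelles, had a peak of fold 18.1 in replicate 2 and none in replicate 1, and Rab12 and Rab38 had none within 1 kb in either. Rab24 had peaks of 5.05 and 15.5 that did not overlap, and Rab29 had a replicate 2 peak of 9.80. The exact intervals of this set and of the endoplasmic reticulum and Golgi set overlap, which does not decide whether the roles differ. The difference between roles was not tested, since the members were picked on these peaks.

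Regulated secretion genes were bound at 4 of 9 (44.4%, 13.7 to 78.8). Rab3a, of synaptic vesicles, had folds of 11.5 and 19.8, and Rab3d, of secretory granules, 12.4 and 16.1. The peak of Rab26 (11.9 and 24.4) lay 762 bp outside the gene, the farthest of the 40, and that of Rab37 (9.05 and 14.5) 257 bp outside it. Rab3b and Rab3c each had a peak of 1 replicate only (7.71 in replicate 2 and 13.8 in replicate 1), and Rab27a, Rab27b and Rab44 had none within 1 kb. Of the 6 remaining GTPases, Rab40c and Rab40b (14.2 and 9.75) were bound. Rab23, a regulator of Hedgehog signalling, had replicate 1 peaks only, with a best fold of 8.62, and Rab28, a ciliary protein, a replicate 2 peak of 8.97. Rab20 and Rab42 had no peak within 1 kb.

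**Figure D3:**
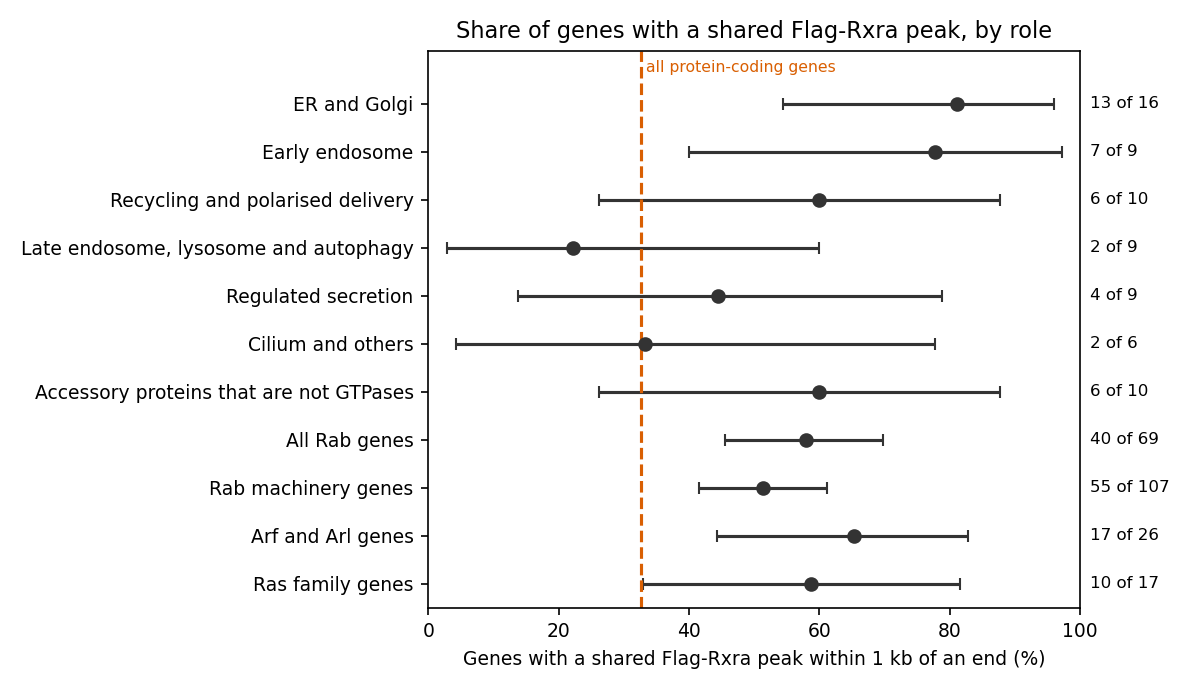
Share of genes (x axis, %) with a shared Flag-Rxra peak within 1 kb of an end, by role, for all Rab genes, the other genes of the Rab pathway, Arf and Arl genes and Ras family genes (y axis). Bars are exact Clopper-Pearson 95% intervals, and the dashed line marks all protein-coding genes at 32.6%. The set of the endoplasmic reticulum and Golgi stands at 81.2% and the late endosome set at 22.2%; the order of the sets changes with 1 replicate alone, where early endosome genes are highest (88.9% in each) and, in replicate 2, the late endosome set is not lowest.

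Of the accessory genes, both subunits of the Rab3 GTPase-activating complex were bound, with 12.5 and 10.9 at Rab3gap1. Rab11fip2 (10.6 and 20) and Rab11fip5 (11.2 and 15.0), effectors of recycling endosomes, were bound, as were Rab3ip, an exchange factor (9.10 and 9.43), and Rab5if (7.41 and 9.69), the weakest by rank. Rab11fip1 had a replicate 2 peak of 10.9 and Rab11fip3 and Rab11fip4 none within 1 kb. Rab3il1 had no peak within 1 kb of an end, although 2 overlapping promoter windows inside the gene lay under a shared peak.

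Among the 14 groups of GTPase genes with the same number, 7 were bound at every member (Rab1, Rab2, Rab4, Rab5, Rab8, Rab33 and Rab40), 1 at none (Rab27) and 6 at some. The groups that differed were Rab3, Rab6, Rab7, Rab9, Rab11 and Rab39. In the pairs Rab9 and Rab39, the unbound paralogue, Rab9b and Rab39b, had no peak of either replicate within 50 kb, and these were the only 2 such members. Rab28, Rab32 and Rab38 had replicate 2 peaks but no shared peak in that window. The other 64 members had at least 1 shared peak within 50 kb (92.8%, against 68.1% of all genes), with a median over all 69 of 3 peaks, against 1 over all genes. The closest shared peaks outside the 1 kb window lay at Rab21 (1338 bp), Rab20 (1633 bp) and Rab7b (1889 bp).

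Shared peaks were also common at the other genes of the pathway, where 55 of 107 were bound (51.4%, 41.5 to 61.2). The difference from the Rab genes was not tested. Exchange factors were bound at 17 of 30, led by Dennd4c (16.5 and 32.7) and Sbf1 (15.1 and 29.5). Genes of the TBC family and related genes, grouped as GTPase-activating proteins without a check of activity, were bound at 16 of 33. The strongest by rank were Tbc1d32 (18.9 and 27.7) and Tbc1d23 (18.3 and 23.1). Effectors were bound at 17 of 36, led by Golga2, a matrix protein of the Golgi (20.3 and 25.4), and Ehbp1 (14.6 and 21.5). Of the 8 genes of prenylation and membrane extraction, 5 were bound, among them Rabif, a chaperone of nucleotide-free Rabs (19.2 and 20), and Gdi2, a GDP dissociation inhibitor (9.45 and 17.3). The Rab escort genes Chm and Chml were not. Among other small GTPases, 17 of 26 Arf and Arl genes (65.4%, 44.3 to 82.8) and 10 of 17 Ras family genes (58.8%, 32.9 to 81.6) were bound.

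H3K27ac regions were called within 1 kb of a gene end at 34 of the 69 Rab genes in CD (49.3%, against 38.3% of all genes) and at 37 in DMSO (53.6%, against 35.8%). Both lists had one at 25, where 21.2% of all genes did, and neither at 23, where 47.0% did. The calls were weak, since the region with the highest −log10 q within 1 kb of any Rab gene reached 2.93 in CD and 2.83 in DMSO, and the lists begin at 1.00. When a −log10 q of 2 or more was asked for, 11 Rab genes in CD and 7 in DMSO were left, 15.9% and 10.1%, against 6.65% and 8.84% of all genes. By role, regions were common at early endosome genes, with 7 of 9 in CD and 5 of 9 in DMSO. They were rare at regulated secretion genes, with Rab37 alone in CD and Rab3a alone in DMSO out of 9.

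H3K27ac and Flag-Rxra peaks often lay at the same Rab genes, as they did at protein-coding genes in general. Bound members had an H3K27ac region within 1 kb in either list in 32 of 40 cases (80.0%), and members not bound in 14 of 29 (48.3%). The same shares over all genes were 82.4% and 38.8%. The 8 bound members with no region in either list were Rab3d, Rab3ip, Rab4a, Rab26, Rab34, Rab35, Rab36 and Rab39. The 5 members with a region in both lists and no shared peak were Rab7b, Rab11a, Rab11fip1, Rab28 and Rab32. An H3K27ac region overlapped the best Flag-Rxra peak itself in CD at 22 of 40 genes (55.0%, against 37.6% of bound genes) and in DMSO at 20 (50%, against 46.0%). It did so in CD alone at 9 (22.5%, against 13.9% of bound genes), in DMSO alone at 7 (17.5%, against 22.3%) and in neither at 11 (27.5%, against 40.1%). No Rab peak lay in one of the very strong H3K27ac regions (−log10 q of 5 or more in both lists) that occur elsewhere in these lists. Leaving out peaks in such regions therefore could not change the count of 40, and 32.5% of all genes stayed bound.

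The effect of CD on H3K27ac was compared as the number of bases that called regions covered around each gene. Within 2.5 kb of the ends, 26 of the 69 Rab genes had more covered bases in CD (37.7%, against 35.8% of all genes) and 32 had fewer (46.4%, against 32.1%). The other 11 were equal, as were 32.1% of all genes. The median difference was 0 for the Rab genes and for all genes. The 40 bound members divided into 18 with more and 19 with fewer, where the 7128 bound genes in general gave 3112 and 3531. The 29 other members divided into 8 with more and 13 with fewer, where the 14759 other genes gave 4721 and 3501.

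Rab5a had the largest deficit in CD, with 501 covered bases against 2845 in DMSO. Fewer bases in CD were also found at Rab42 (0 and 1360), Rab6a (0 and 1341), Rab5b (188 and 1241), Rab32 (260 and 1030) and Rab36 (0 and 704). Of these 6 genes, 4 were bound (Rab5a, Rab6a, Rab5b and Rab36). In the opposite direction, Rab28 had 1952 bases in CD and 734 in DMSO, Rab11fip2 1214 and 0, and Rab5if 1652 and 472. They were followed by Rab31 (1819 and 664), Rab4b (1424 and 405) and Rab18, of lipid droplets and the endoplasmic reticulum (1956 and 948). Only Rab11fip2 kept its difference once weaker regions, below a −log10 q of 2, were left out, where all 1214 bases remained. Its CD region had a −log10 q of 2.02, just above that cutoff. Without the weaker regions Rab31, Rab18, Rab5b and Rab32 changed sign, to −197, −723, 188 and 260 bases, and the other 7 had 0 bases of difference.

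**Figure D4:**
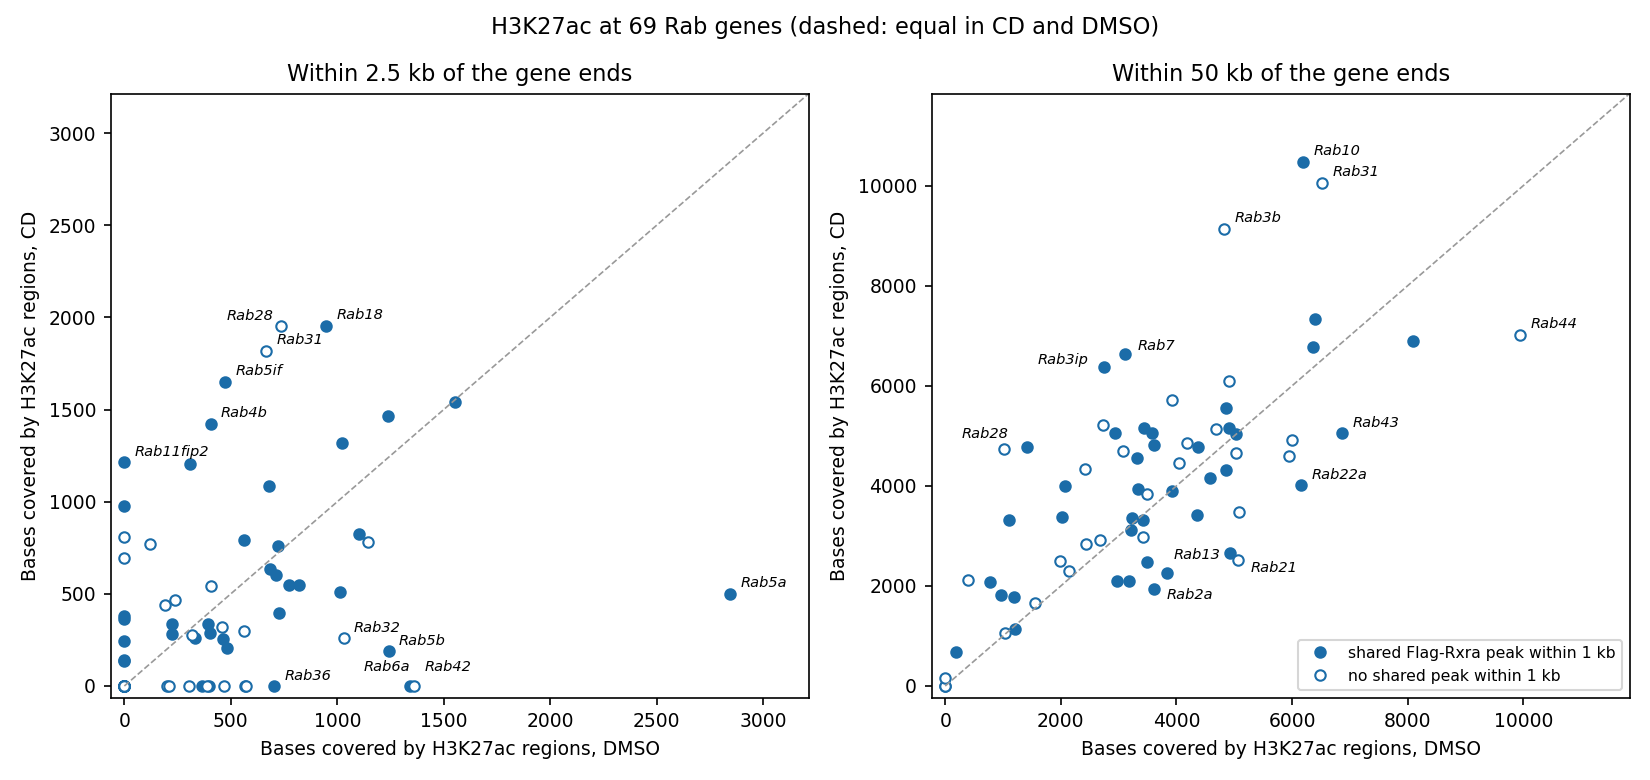
Bases covered by called H3K27ac regions in DMSO (x axis) and CD (y axis) within 2.5 kb (left) and 50 kb (right) of the ends of the 69 Rab genes; filled points are bound genes. Rab5a lies far below the line of equality on the left (501 in CD and 2845 in DMSO), and 44 points lie above it on the right.

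Within 50 kb of the ends, 44 Rab genes had more covered bases in CD (63.8%, against 59.0% of all genes) and 23 had fewer (33.3%, against 31.5%). The other 2 were equal, as were 9.44% of all genes. The median difference was 404 bases, against 262 for all genes. The CD list covers more of the genome, 37.3 Mb against 31.1 Mb, and with covered lengths matched the split became 33 with more and 34 with fewer, against 46.0% and 42.7% of all genes. Rab3b had 9142 bases in CD and 4818 in DMSO, Rab10 10481 and 6188, and Rab28 4739 and 1011. Rab3ip (6385 and 2745), Rab31 (10063 and 6526) and Rab7 (6637 and 3116) also had more in CD. Fewer bases in CD were found at Rab44 (7026 and 9942), Rab21 (2527 and 5065), Rab13 (2658 and 4931), Rab22a (4018 and 6161), Rab43 (5051 and 6869) and Rab2a (1948 and 3618). All of these 12 kept their direction with matched lengths, and 8 of them without the regions below a −log10 q of 2. Without those regions 27 Rab genes had more bases within 50 kb and 34 fewer (34.5% and 39.1% of all genes), and within 2.5 kb 11 had more and 9 fewer (9.69% and 11.8% of all genes).

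The late endosome and lysosome set had its differences in opposite directions in the near and the wide window. Within 2.5 kb 6 of its 9 genes had fewer bases in CD (66.7%, against 32.1% of all genes). Rab24 alone had more (11.1%, against 35.8% of all genes). Within 50 kb 8 had more (88.9%, against 59.0% of all genes) and Rab38 had none in either list. With matched lengths the wide window gave 7 with more and 1 with fewer, against 46.0% and 42.7% of all genes. Without the weaker regions it gave 4 and 3, against 34.5% and 39.1% of all genes. Without them the near window gave 2 genes with more and 0 with fewer (9.69% and 11.8% of all genes). The direction of the near window was thus not kept. Neither pattern was tested, since each condition had 1 list.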

How the data were processed

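CUT&Tag was done on 6 samples in 3 groups of 2. Per the submitters' processing notes the tools were fastp 0.20.1, Bowtie2 2.2.5, MACS2 2.1.2 and deepTools 3.4.3, with genome build mm10; their settings are not given in the sources used here. The authors deposited 4 peak lists, 1 for each Flag-Rxra replicate and 1 for each H3K27ac condition. Fold enrichment is a ratio over background and is printed as the authors deposited it. The −log10 q values of the peaks are also the authors' deposited values. Peaks outside chromosomes 1 to 19, X and Y were left out (126 in CD, 106 in DMSO, 42 and 58 in Flag-Rxra replicates 1 and 2).

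Genes and promoter windows came from RefSeq (GRCm38.p6, the assembly of mm10). A gene was bound where a replicate 1 peak that overlapped a replicate 2 peak by 1 bp lay within 1 kb of either end of the gene. H3K27ac was summed as covered bases in windows of 2.5 and 50 kb around the ends. Intervals for shares are exact Clopper-Pearson 95% intervals and cover counting error only. Depth is unknown, and no test was made. Python 3.11.15, numpy 2.4.6, pandas 2.3.3, scipy 1.17.1 and matplotlib 3.10.9 were used, and the scripts were checked on simulated data.

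The members, lists and rules were chosen with earlier results of these data known. Named genes were the 12 best by mean rank of fold over both replicates, members with no peak within 50 kb or a peak of 1 replicate only, the 6 largest H3K27ac differences each way in each window, and paralogue groups that differed; the others are given by role. Rab5if was in no written role; the rule for unnamed members would have put it with the cilium and other GTPases, and it was moved to the accessory genes, since it is not a GTPase, after the files were seen. Alternatives were single replicates, stricter q values, 50% overlap, other windows, start sites only, GTPases only, matched covered lengths and bases weighted by fold.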

Additional observations from a re-analysis of the deposited data

How the results depend on the processing

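Of 31 alternative values for the counts of Rab genes, 24 stayed within 1.5 times the reported count and 7 did not. The alternative without peaks in very strong H3K27ac regions is among the 24 and could not move, since no Rab peak lay there. Leaving out the 10 accessory genes could not move the larger counts that far either. The 24 are thus no measure of how stable the results are. The 40 bound genes became 26 with an overlap of 50% of both peaks and 64 with a window of 50 kb, which takes in more peaks by construction. From single replicates the count was 47 to 49. With −log10 q of 20 or more it was 32, without Rab3gap1, Rab3ip, Rab4a, Rab7, Rab9, Rab14, Rab35 and Rab40b. With H3K27ac regions of −log10 q of 2 or more, where fewer regions remain, genes with a region within 1 kb were 11 in CD and 7 in DMSO. In the same setting, genes with more covered bases in CD were 11 within 2.5 kb and 27 within 50 kb, and those with fewer were 9 within 2.5 kb. Within 50 kb, matched covered lengths gave 33 genes with more and 34 with fewer, where the reported counts were 44 and 23. Both values are among the 24, although the excess of genes with more bases in CD was lost. No paired analysis was possible because the results come from no test and each H3K27ac condition is 1 list, so no H3K27ac replicate could be left out either. Weak H3K27ac calls limit the comparison of CD with DMSO, and the depth is unknown.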

Other observations

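Among noncoding genes named after Rab genes, 2 of the 4 antisense or opposite-strand RNA genes had a shared Flag-Rxra peak within 1 kb of an end. Rab10os (chr12:3235791-3250374) had 2, the better with folds of 9.40 in replicate 1 and 19.8 in replicate 2, apart from the peak at Rab10. Rab26os shared the peak of Rab26 (11.9 and 24.4). Rab11fip4os1 and Rab11fip4os2 had no Flag-Rxra peak and 1 H3K27ac region each, in CD. None of the 5 Rab pseudogenes, Rab5a-ps, Rab7-ps1, Rab9b-ps1, Rab11b-ps1 and Rab11b-ps2, had a peak of either replicate within 1 kb, and Rab11b-ps1 had 1 H3K27ac region, in DMSO. The shares over all noncoding RNA genes and all pseudogenes were not computed, so these counts have no background to be read against.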
